A study of Homo sapiens with 3 samples.

Results

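The 9 miRNA entries described here, whose counts can include pieces of longer structural RNAs, were followed across 3 small-RNA libraries of SK-MEL-2 cells. They were taken by name from the 2588 human miRNAs listed for each library, and all 9 were listed. Of these, 2 entries can carry U2 small nuclear RNA (hsa-miR-1246 and hsa-miR-1290), and 6 can carry cytoplasmic ribosomal RNA or its precursor (hsa-miR-663a, hsa-miR-663b, hsa-miR-6087, hsa-miR-7641, hsa-miR-3648 and hsa-miR-3687). The remaining entry, hsa-miR-4485-3p, can carry mitochondrial ribosomal RNA. SK-MEL-2 is an established human melanoma line, grown here in RPMI-1640 with 10% FBS and antibiotics. The control cells had no treatment, and the other cells were held under a jet of nonthermal plasma (weakly ionised gas that stays near room temperature) for 3 min or for 5 min. RNA of all groups was taken at Day 2. Each group was 1 library of 1 cell line, so no value below has a replicate check, no test was possible, and each ratio compares libraries rather than conditions.

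A miRNA is cut from a hairpin, loaded into an Argonaute protein and guides it to mRNAs mainly through its seed, bases 2 to 8. U2 is a nuclear RNA of the spliceosome that pairs with the branch site of introns, and ribosomal RNAs are the most abundant RNAs of a cell. The large cytoplasmic ribosomal RNAs are cut from 1 long precursor made in the nucleolus, while mitochondria transcribe their own pair. A short piece of such an RNA that matches the sequence of a miRNA entry can be counted there, and a count table cannot separate such a piece from a Dicer product.

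Mature sequences were found in RefSeq (GRCh38.p14) for 6 of the 9 entries and are shown so that they can be set beside each other and, for miR-1246, miR-1290 and miR-4485-3p, beside the RNA they overlap. Capitals mark the seed.
miR-1246: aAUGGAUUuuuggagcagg
miR-1290: uGGAUUUUuggaucaggga
miR-663a: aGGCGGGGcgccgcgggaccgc
miR-663b: gGUGGCCCggccgugccugagg
miR-3648: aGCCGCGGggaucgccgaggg
miR-4485-3p: uAACGGCCgcgguacccuaa
The 6 seeds all differ. The other listed miRNAs with the seed of miR-663a were miR-1908-5p and miR-6787-5p, both at 0 in all 3 libraries, and no other listed miRNA with a sequence in RefSeq had any of the remaining 5 seeds. miR-663a, miR-663b and miR-3648 were rich in G and C, at 90.9%, 81.8% and 81.0% of their bases against a median of 52.2% over the 2281 listed miRNAs with a sequence. Only 0.438% of those had as high a share as miR-663a. miR-1246 and miR-1290 had 42.1% each and miR-4485-3p 60.0%. miR-6087, miR-7641 and miR-3687 are given by name.

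The match to the structural RNAs was read from GENCODE 29 transcripts. Below, U2 (gene RNU2-1, bases 90 to 116, then 92 to 118) and the large mitochondrial ribosomal RNA (gene MT-RNR2, bases 889 to 916) are written as RNA, with the bases identical to the aligned miRNA in capitals.
U2 at miR-1246: auuaAAUGGAUUUUUGGAGCAGGgaga
U2 at miR-1290: uaaaUGGAUUUUUGGAgCAGGGAgaug
MT-RNR2 at miR-4485-3p: uguuUAACGGCCGCGGUACCCUAAccgu
All 19 bases of miR-1246 are in RNU2-1, at its bases 94 to 112. miR-1290 aligns over bases 96 to 114 of the same RNA with 1 difference, U13G, counted from the 5′ end of miR-1290 with its own base first. Against RNU2-2P, another annotated U2 gene, miR-1246 had 4 differences (G15A, C16A, A17U and G18A) and miR-1290 also had 4. Of 90 annotated U2 genes and pseudogenes, 19 hold miR-1246 in full and 0 hold miR-1290 in full, while 31 and 23 hold them with at most 1 difference. miR-1246 and miR-1290 thus cover nearly the same stretch of U2: where they overlap, over 17 bases, 16 are identical and the difference is G15U, counted from the 5′ end of miR-1246. All 20 bases of miR-4485-3p are in MT-RNR2, at bases 893 to 912. Among the 2281 listed miRNAs with a sequence, miR-1246 was the 1 entry with a stretch of 19 bases in RNU2-1, and miR-4485-3p the 1 entry with a stretch of 20 in MT-RNR2. No entry among miR-663a, miR-663b and miR-3648 shared more than 7 bases with U2, RNA5S1 (5S ribosomal RNA), RNA5-8SN2 (5.8S) or the mitochondrial ribosomal RNAs; the match of the ribosomal entries, miR-6087, miR-7641 and miR-3687 included, to the long ribosomal precursor was not analysed here, so that class is given by the rule that chose it.

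In the genome, mature miR-1246 is at chr2:176601024-176601042 on the minus strand (GRCh38), and no other annotated gene overlaps its hairpin. Mature miR-1290 is at chr1:18897078-18897096, minus strand, in an intron of ALDH4A1. Mature miR-663a (chr20:26208243-26208264, minus strand) is in an exon of its host transcript MIR663AHG, and miR-663b (chr2:132256970-132256991, minus strand) in an intron of ANKRD30BL. Hairpin MIR6087 is at chrX:109054542-109054590 with no other gene over it. miR-7641 has a pair of hairpins. MIR7641-1 is at chr11:104252591-104252651 outside other genes. MIR7641-2 is at chr14:75604209-75604261, in an intron of FLVCR2 and over the 5S pseudogene RNA5SP387. Mature miR-4485-3p is at chr11:10508277-10508296, minus strand, in an exon of MTRNR2L8, a nuclear copy of the mitochondrial gene. One hairpin of miR-3648 (chr21:8208473-8208652) lies within the ribosomal precursor gene RNA45SN2 in RefSeq, and a hairpin of miR-3687 follows it at chr21:8208844-8208904. The other copies are MIR3648-2 (chr21:8986999-8987178), from which the sequence above was taken and which lies in no other gene, and MIR3687-2 (chr21:8987370-8987430). The deposited counts have no positions, so which of these copies gave the reads is not known.

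Library totals were 1045482 counts in control, 966943 after 3 min and 615645 after 5 min, so 1 count was worth 0.956, 1.03 and 1.62 CPM (the count divided by the library total, on the usual per-million scale). A floor of 3 counts, or 2.87, 3.10 and 4.87 CPM, was chosen to stand in for a count of 0. Of the melanocytic marker miRNAs, 3 of 9 had counts (miR-204-5p with 2608, 2535 and 1257 counts, miR-146a-5p with 1319, 1442 and 1139, and miR-211-5p with 128, 97 and 65), and the 6 of the miR-506 to miR-514 cluster were at 0. Intervals are exact 95% intervals and, with PCR copies uncounted as such, cover counting error only. Since the RNA is bulk, more of an RNA per cell and more cells that contain it cannot be told apart.

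miR-1246, the entry identical to U2, was the most abundant of the 9 after 5 min and, of the 5 entries with enough counts to be compared in each library pair, the most different between libraries. It had 68 counts in control, 110 after 3 min and 660 after 5 min, or 65.0 CPM (50.5 to 82.5), 114 CPM (93.5 to 137) and 1072 CPM (992 to 1157). The 3 intervals do not overlap, and the 5 min library stands far above both others. By abundance it was number 155 of the listed miRNAs in control, number 129 after 3 min and number 59 after 5 min. Its ratio to control, scaled for library size (TMM), was 1.77 at 3 min (1.29 to 2.43) and 16.4 at 5 min (12.7 to 21.3), and the 5 min library stood 9.26-fold over the 3 min library (7.56 to 11.4). A mean count of 20 or more over the libraries was met by 231 miRNAs, called measured here, among which these ratios placed it 8th, 4th and 2nd from the top.

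miR-1290, 1 base away from the same U2 stretch, was scarcer and differed less. Its counts were 26, 29 and 49 in control, 3 min and 5 min, or 24.9 CPM (16.2 to 36.4), 30.0 CPM (20.1 to 43.1) and 79.6 CPM (58.9 to 105). Control and 3 min overlap, and 5 min lies above both. The ratio to control was 1.22 after 3 min, with an interval of 0.692 to 2.15 that includes 1, and 3.18 (1.94 to 5.32) after 5 min. After 5 min it ranked 9th of the 231.

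Of the ribosomal entries, miR-6087 was the most abundant. It had 194 counts in control, 197 after 3 min and 334 after 5 min, or 186 CPM (160 to 214), 204 CPM (176 to 234) and 543 CPM (486 to 604). Although the 5 min library was the shallowest, it held the most counts. The ratio to control was 1.11 for the 3 min library (0.904 to 1.36) and 2.90 for the 5 min library (2.42 to 3.48).

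miR-7641, of which 1 hairpin lies over a 5S pseudogene, had 117, 138 and 199 counts, or 112 CPM (92.6 to 134), 143 CPM (120 to 169) and 323 CPM (280 to 371). Its 3 min library lay a little above control with overlapping intervals, and its 5 min library above both. Relative to control it stood at 1.29 for 3 min (0.999 to 1.66) and at 2.87 for 5 min (2.27 to 3.63).

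miR-663a, the GC-rich entry on chromosome 20, had 38, 42 and 64 counts, or 36.3 CPM (25.7 to 49.9), 43.4 CPM (31.3 to 58.7) and 104 CPM (80.1 to 133). Again only the 5 min library stood clear of both others. The shorter exposure was at 1.21 of control (0.759 to 1.92) and the longer at 2.84 (1.87 to 4.36). These 3 ribosomal entries ranked 12th (miR-6087), 13th (miR-7641) and 14th (miR-663a) of the 231 after 5 min.

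The other ribosomal entries were at or near 0. miR-663b had 1 count in control and 0 in both plasma libraries. miR-3648 and miR-3687, which each have a pair of hairpins on chromosome 21, had 0 counts in each library. The exact intervals of these zeros reach 3.53 CPM in control, 3.81 CPM after 3 min and 5.99 CPM after 5 min. No ratio can be given for these 3.

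miR-4485-3p, identical to part of the large mitochondrial ribosomal RNA, had 0 counts in control, 1 after 3 min and 17 after 5 min. That is 1.03 CPM at 3 min (0.0262 to 5.76) and 27.6 CPM at 5 min (16.1 to 44.2). It was below the filter of 20 counts on average and is in none of the counts of measured entries. With the control count set at the floor of 3, the ratio after 5 min was 9.55. That value leaves out the counting error of the 17 counts, so it is not a lower limit. Against the single count of the 3 min library, itself under the floor, the ratio was 26.2, with a counting interval of 4.11 to 1097.

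**Figure D1:**
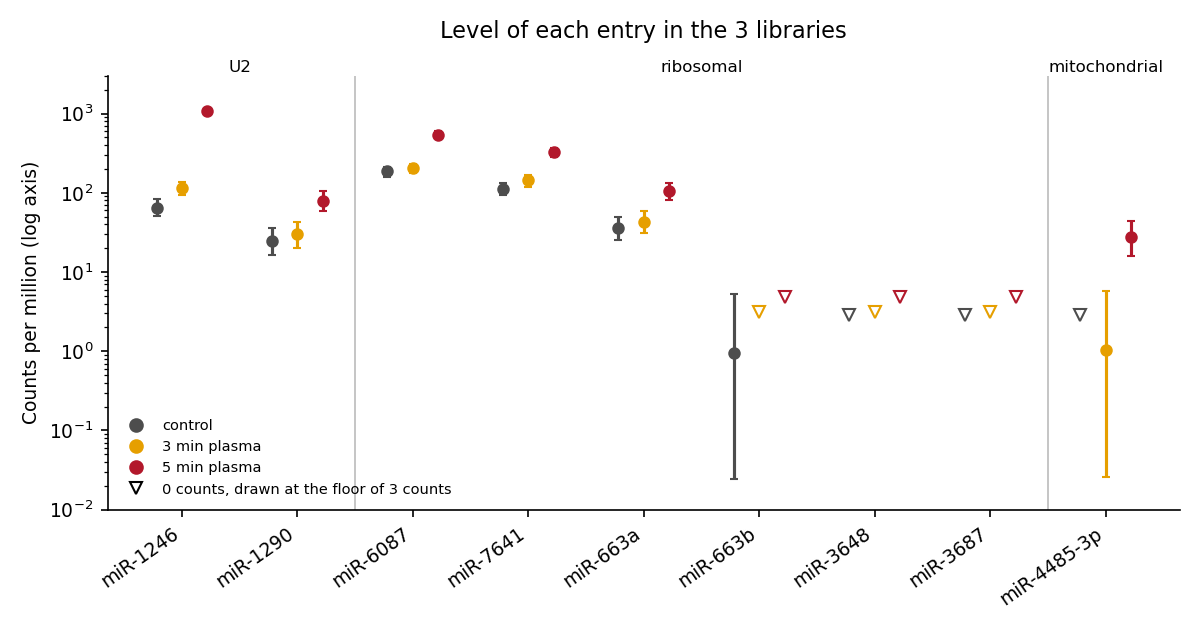
Level of each of the 9 entries in CPM on a log axis, 1 point per library with its exact 95% counting interval; open triangles are counts of 0, drawn at the floor of 3 counts. The 5 min point is the highest for miR-1246 (1072), miR-6087 (543), miR-7641 (323), miR-663a (104), miR-1290 (79.6) and miR-4485-3p (27.6), while control and 3 min lie close together except for miR-1246.

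Counted against all measured miRNAs, all 5 measured entries passed the 2-fold size rule at 5 min and none of these 5 did at 3 min. Of the 5, miR-1246 alone had an interval clear of 1 at 3 min. Over all 231, 54 had such an interval on the higher side at 3 min and 33 on the lower side, so this does not single out miR-1246. After 5 min, 5 of 5 were at least 2-fold higher than control, where 9.52% of the 231 were, and 0 were at least 2-fold lower, where 3.46% were. After 3 min, 0 of 5 were at least 2-fold higher, where 2.16% of all were, and 0 were 2-fold lower, where 0.866% were. In 5 min against 3 min plasma, 5 of 5 were at least 2-fold higher, beside 6.49% of all, and 0 were 2-fold lower, beside 0.866%. Their median log2 ratio was 0.28 after 3 min, 1.54 after 5 min and 1.38 between the exposures, while the median of all 231 was 0.05, 0.05 and 0.02. The comparisons of 3 min and of 5 min with control share the control library, and the comparison of the exposures shares a library with each. The 9 entries were chosen with earlier results of these data known, so this count is a description.

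**Figure D2:**
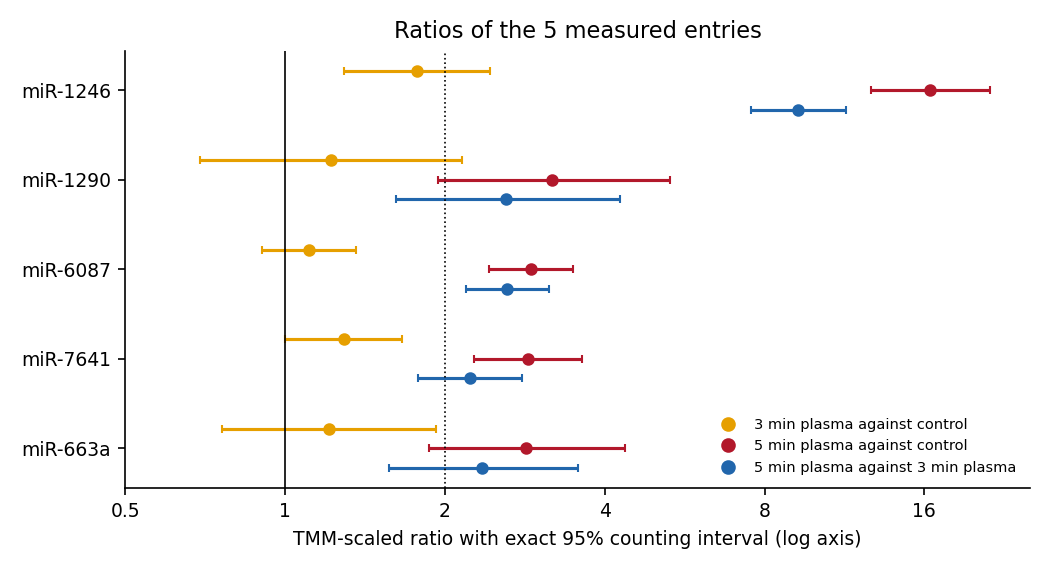
TMM-scaled ratio of the 5 measured entries in the 3 comparisons on a log axis, with exact 95% counting intervals; the solid line is a ratio of 1 and the dotted line the 2-fold size rule. The 5 min ratios to control of miR-1290, miR-6087, miR-7641 and miR-663a lie between 2.84 and 3.18, and that of miR-1246 is 16.4.

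**Figure D3:**
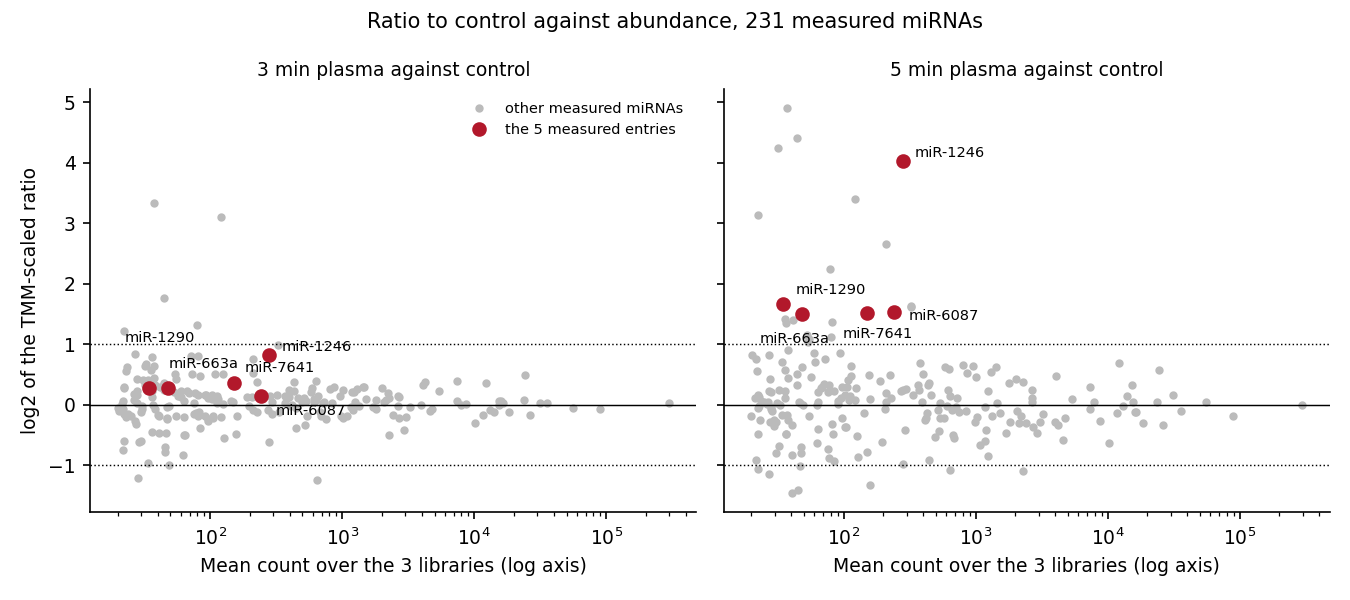
log2 of the scaled ratio to control against the mean count over the 3 libraries (log axis) for 231 measured miRNAs after 3 min (left) and 5 min (right), with the 5 measured entries in red and dotted lines at 2-fold. After 5 min the 5 entries lie at ratios of 2.84 to 16.4, all above the upper dotted line, and after 3 min at 1.11 to 1.77, all below it.

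Proportions among the entries within a library need no scaling between libraries, and they set miR-1246 apart from the rest. They come from the same counts as the ratios above, so they are not a separate check of them. The changes in proportion given below were added after seeing the data. For each count of miR-6087 the control library had 0.603 counts of miR-7641 (0.475 to 0.763), the 3 min library 0.701 (0.559 to 0.875) and the 5 min library 0.596 (0.497 to 0.712). miR-663a stood at 0.196 (0.135 to 0.278), 0.213 (0.149 to 0.299) and 0.192 (0.144 to 0.251) per count of miR-6087. miR-1290 stood at 0.134 (0.0854 to 0.202), 0.147 (0.0961 to 0.218) and 0.147 (0.106 to 0.198). So the proportions of these 4 entries, 1 of the U2 class and 3 of the ribosomal class, were close in the 3 libraries. miR-1246 instead went from 0.351 (0.262 to 0.464) through 0.558 (0.438 to 0.709) to 1.98 (1.73 to 2.26) counts per count of miR-6087.

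For the 6 pairs among miR-1290, miR-663a, miR-7641 and miR-6087, the interval of the change in proportion included 1 in each of the 3 comparisons. In 5 min against control the change was 0.988 for miR-7641 to miR-6087 (0.733 to 1.33), 0.978 for miR-663a to miR-6087 (0.619 to 1.56) and 1.09 for miR-1290 to miR-6087 (0.643 to 1.90). An interval that includes 1 does not show that the proportions were equal, and the limits for miR-1290 in 5 min against control reach 1.90-fold over miR-6087, 1.96-fold over miR-7641 and 2.19-fold over miR-663a. For the 4 pairs with miR-1246, the interval excluded 1 in 4 of 4 in 5 min against control, in 4 of 4 in 5 min against 3 min, and in 1 of 4 in 3 min against control. These 4 pairs share the counts of miR-1246, so they are not separate checks. After 5 min miR-1246 was higher than in control by 5.15-fold relative to miR-1290 (2.87 to 9.05). Both align to the same stretch of U2, miR-1290 with 1 difference, and the source of the reads was not tested. Relative to the ribosomal entries miR-1246 was higher by 5.64-fold over miR-6087 (4.11 to 7.77), 5.71-fold over miR-7641 (4.01 to 8.13) and 5.76-fold over miR-663a (3.47 to 9.46). The 1 pair whose interval excluded 1 after 3 min was miR-1246 to miR-6087, at 1.59-fold (1.09 to 2.33).

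**Figure D4:**
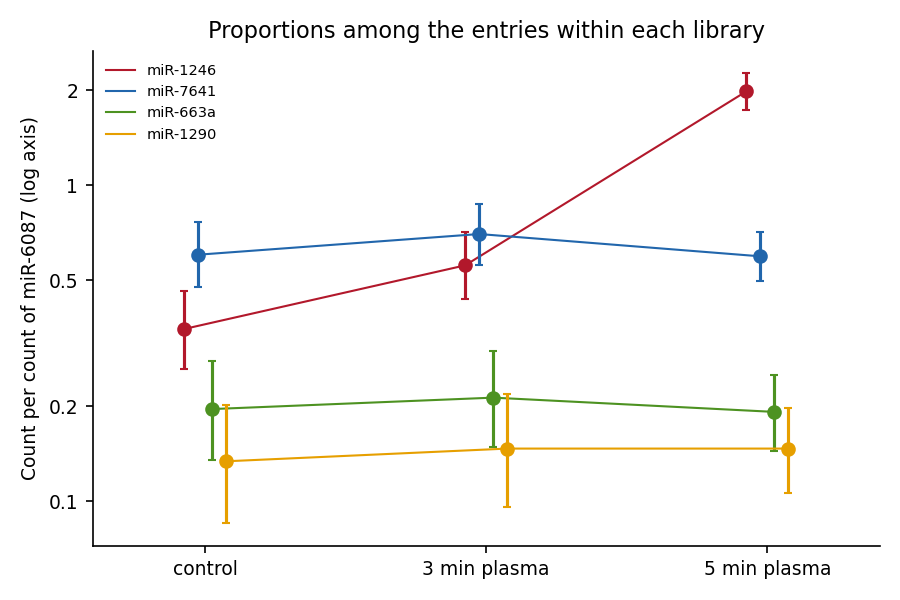
Counts of miR-1246, miR-7641, miR-663a and miR-1290 per count of miR-6087 in the same library (log axis), with exact 95% counting intervals; lines join the 3 libraries of an entry. The lines of miR-7641, miR-663a and miR-1290 are near level, and that of miR-1246 goes from 0.351 in control to 1.98 after 5 min.

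Summed by class, the entries took a small part of each library. All 9 together had 444 counts in control, 517 after 3 min and 1323 after 5 min. These were shares of 0.0425% (0.0386 to 0.0466), 0.0535% (0.0490 to 0.0583) and 0.215% (0.203 to 0.227) of the libraries in that order. In control miR-1246 made up 15.3% of these (12.1 to 19.0), in the 3 min library 21.3% (17.8 to 25.1) and in the 5 min library 49.9% (47.2 to 52.6). miR-6087, the leading entry in control with 43.7% (39.0 to 48.4), held 25.2% after 5 min (22.9 to 27.7). The sum was 5.02-fold control after 5 min (4.51 to 5.60), and 2.97-fold without miR-1246 (2.61 to 3.38). Against control the ribosomal class was 1.18-fold in the 3 min library (1.01 to 1.36) and 2.87-fold in the 5 min library (2.51 to 3.29). The U2 class was 1.61-fold (1.23 to 2.12) and 12.7-fold (10.2 to 15.9) in that order, and without miR-1246 it is miR-1290 alone, at 1.22-fold and 3.18-fold.

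The measured miRNAs most like each entry were taken by the distance between their pairs of log2 ratios to control, over 3 libraries. Nearest to miR-1246 were miR-7704 at a distance of 0.28, with 7, 10 and 79 counts in control, 3 min and 5 min, miR-215-5p at 0.97, and miR-4497 at 1.02. miR-7704, miR-215-5p and miR-4497 met the filter only through their 5 min counts, so a high 5 min ratio was built into their being measured. For miR-1290, miR-663a, miR-6087 and miR-7641 the nearest 3 were shared, namely miR-589-5p, miR-194-5p and miR-6124. miR-589-5p, with 253, 258 and 458 counts, was 0.07 from miR-6087 and 0.14 from miR-1290. miR-194-5p, with 34, 38 and 53 counts, was 0.11 from miR-663a and 0.15 from miR-7641. At 5 min, miR-589-5p stood at 3.05-fold control (2.61 to 3.57), miR-194-5p at 2.63-fold (1.68 to 4.17) and miR-6124 at 2.55-fold (1.59 to 4.16), so ratios of this size were also seen in miRNAs outside the group.

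Other entries that can carry pieces of non-coding RNAs went different ways. Of 11 further entries listed as possible ribosomal repeat products, 1 was measured, miR-4497, with 8, 25 and 101 counts, 21.3-fold control after 5 min (10.4 to 50.6). It met the filter only through its 5 min count, so a high 5 min ratio was built into its being measured. The next most abundant, miR-4508, had 3, 13 and 21 counts, 11.8-fold control after 5 min (3.52 to 61.8). Its control count is at the floor. Together the 11 had 34, 53 and 161 counts, or 7.98-fold control after 5 min (5.48 to 11.9). miR-4497 alone held 8 of the 34 in control and 101 of the 161 after 5 min, so the sum does not describe each entry. Of 6 listed entries that resemble transfer RNA, 3 were measured. The 6 summed to 252, 149 and 83 counts, which was 0.645 of control at 3 min (0.523 to 0.793) and 0.555 of control at 5 min (0.428 to 0.714). In this list 0 measured entries were at least 2-fold higher after 5 min and 1 was at least 2-fold lower, miR-1260a, with 76, 43 and 17 counts, named after its values were seen. Its leading entries were miR-4454 (99, 51 and 38 counts) and miR-1260b (67, 52 and 23). The 13 listed entries from small nucleolar RNA, of which 0 were measured, had 10, 11 and 18 counts in all, or 3.03-fold control after 5 min (1.33 to 7.35), led by miR-1248 with 4, 7 and 11 and miR-664a-5p with 4, 2 and 1. The 5 other mitochondrial entries had 0, 1 and 3 counts, from miR-1973 (0, 1 and 2) and miR-4484 (0, 0 and 1). The summed transfer RNA entries thus stood below control in the library where the U2 sum and the ribosomal sum stood above it. In that library the ribosomal entries miR-663b, miR-3648 and miR-3687 had 0 counts.

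Markers of other cell types were also counted. Epithelial marker miRNAs, 5 of 6 listed with counts and miR-205-5p at 0, summed to 15, 24 and 40 counts in control, 3 min and 5 min, or 14.3, 24.8 and 65.0 CPM, a 5 min sum of 4.49-fold control (2.43 to 8.76). Muscle markers, 3 of 6 with counts and miR-133b, miR-206 and miR-208b-3p at 0, summed to 15, 17 and 28 counts, or 14.3, 17.6 and 45.5 CPM, and stood at 3.15-fold control at 5 min (1.62 to 6.34). Blood markers, 6 of 7 with counts and miR-223-3p at 0, summed to 11, 18 and 12 counts, or 10.5, 18.6 and 19.5 CPM, with a 5 min ratio of 1.84 whose interval of 0.743 to 4.60 includes 1. In CPM each of these 3 sums was highest in the 5 min library, as were the 5 measured entries and miR-4485-3p. For blood, however, the 5 min sum was 1.03-fold the 3 min sum, with an interval of 0.452 to 2.26 that includes 1. The part of these markers in the result was not tested. Depth also went with exposure, the 5 min library being the shallowest, and depth and exposure cannot be told apart with 1 library per group.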

How the data were processed

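Small RNA was sequenced from untreated SK-MEL-2 cells and from cells exposed to the plasma jet, 1 library per group. Per the labels' protocols, Trizol was used for extraction and a NEBNext small-RNA kit for the libraries. The authors deposited whole-number read counts per mature miRNA. Bowtie2, bedtools and edgeR were used, per the submitters' processing notes. Their versions, the genome build, the annotation, strand, mismatches allowed and the treatment of reads that match several places were not stated in the sources used here. These settings decide whether U2 or ribosomal pieces are counted under an entry and how miR-1246 and miR-1290 share reads.

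Ratios were counted for miRNAs averaging 20 counts or more (231 of 2588 miRNAs, 5 of the 9 entries). Counts were scaled by library total and TMM factor (edgeR 4.0.16 in R 4.3.3; factors 1.000, 0.991 and 1.008). Ratios have exact Clopper-Pearson 95% intervals from the binomial split of the counts. Changes in proportion have exact conditional intervals for an odds ratio; this measure was added after seeing the data. A ratio of at least 2-fold was the size rule. The 8 other settings tried changed the scaling (DESeq2 1.42.0 among them) or the filter. The ratio step was tested on simulated data, drawn with counting error only and scaled by library total. Variation between libraries and the TMM scaling were not covered by it. Intervals were computed with scipy 1.17.1 (Python 3.11.15) and plots drawn with matplotlib 3.10.9. All 9 entries were named, with the 3 most alike miRNAs for each measured one and the 2 most abundant of each further list. Members and lists were chosen with earlier results of these data known.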

Additional observations from a re-analysis of the deposited data

How the results depend on the processing

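The 15 scaled ratios of the 5 measured entries stayed within their counting intervals under each alternative scaling. The alternative filters kept the main scaling, so they could not move these ratios. miR-1290 and miR-663a do not reach a mean of 100 counts. For 5 min against control, miR-1246 ranged from 14.1 to 17.6, miR-1290 from 2.75 to 3.42, miR-6087 from 2.51 to 3.13, miR-7641 from 2.48 to 3.09 and miR-663a from 2.46 to 3.06. With a mean of at least 100 counts required, 131 miRNAs remained measured, 3 of the entries among them. All 3 were at least 2-fold higher in 5 min against control and in 5 min against 3 min. With no filter 6 of the 9 were, miR-4485-3p being added. Over all miRNAs in 5 min against control, the minimum of 100 counts left 7 higher and 3 lower, of 131. No filter gave 94 and 29 of the 2588 listed, with a single count of 0 set at the floor. Of the 231, 17 were lower with DESeq2 size factors over all listed miRNAs, 16 with TMM over all listed and 4 with the upper quartile. In 3 min against control the minimum of 100 gave 1 higher and 1 lower, no filter 33 and 21, and either scaling over all listed miRNAs 4 lower. In 5 min against 3 min these were 5 and 0, 87 and 26, and 5 (DESeq2) and 4 (TMM) lower. The sum of all 9 entries was 4.34-fold control after 5 min with DESeq2 size factors over all listed miRNAs and 4.46-fold with TMM over them, and the ribosomal sum 2.49-fold with the former. Those scalings moved the median log2 ratio of the 231 after 5 min from 0.05 to -0.16 (DESeq2) and -0.12 (TMM). Without miR-1246, an alternative chosen after seeing the data, the U2 sum was 1.22-fold, 3.18-fold and 2.61-fold (3 min against control, 5 min against control, 5 min against 3 min), and the sum of all entries 2.97-fold in 5 min against control and 2.52-fold in 5 min against 3 min. The cause of these shifts was not tested. No paired analysis was possible because each group had 1 library.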

Other observations

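A search of all 2281 listed miRNAs with a sequence for stretches of at least 16 bases in 6 RNAs (RNU2-1, RNU2-2P, RNA5S1, RNA5-8SN2, MT-RNR1 and MT-RNR2) found 3 entries. Besides miR-1246 in U2 and miR-4485-3p in MT-RNR2, it found miR-1973, whose 19 bases all lie in MT-RNR2, at bases 912 to 930, directly after the stretch of miR-4485-3p (893 to 912) and sharing its last base. From control through 3 min to 5 min miR-1973 had 0, 1 and 2 counts, where miR-4485-3p had 0, 1 and 17.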
